A study of Caenorhabditis elegans with 20 samples.

Results

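The 10 oocyte and eggshell genes *cbd-1*, *chs-1*, *cpg-1*, *cpg-2*, *egg-1*, *egg-2*, *oma-1*, *oma-2*, *puf-5* and *rme-2* were followed through an experiment in which *C. elegans* was exposed to ivermectin (IVM), an anthelmintic that opens glutamate-gated chloride channels. They were found by name in the gene annotation of the Affymetrix array and have 14 probesets of their own out of 20563 probesets tested, or 10 of 16649 genes with a probeset of their own. Each of the 14 probesets is annotated to 1 gene. *cbd-1*, *cpg-1*, *cpg-2* and *oma-2* have 2 probesets each, and the other 6 genes have 1.

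RNA came from whole worms of strain DA1316, which is highly resistant to the drug and carries mutations in 3 of these channel genes, *avr-14*, *avr-15* and *glc-1*. All 4 groups carried these mutations: *avr-14(ad1302)*, *avr-15* (allele *ad1250* in the sample labels and *vu227* in the study's methods) and *glc-1(pk54)*. Worms were grown from the L1 larva for 53 hr at 20°C on OP50 lawns, after which each replicate suspension was divided between drug plates and control plates for 4 hr. There were 5 arrays with 100 ng/ml IVM and 5 control arrays with the matching 0.001% v/v DMSO, and 5 arrays with 1 µg/ml IVM and 5 control arrays with 0.01% v/v DMSO. The worms are described as adults in the sample labels and as L4 or young adults elsewhere in the study. In what follows a culture is the drug array and the control array that share a replicate number.

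Oocytes of the *C. elegans* hermaphrodite grow in single file in the proximal gonad, where they take up yolk made by the intestine and store maternal mRNA and proteins. Much of the material of the eggshell is made by the oocyte and set in place around fertilisation. Expression of these genes rises as the germ line begins to make oocytes around the last moult, so that their abundance in whole worms follows how many oocytes are present as well as how active each gene is. With RNA from whole worms, fewer oocytes and less RNA in each oocyte cannot be told apart.

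One culture of the 1 µg/ml experiment stood apart and is described first, because every result of that experiment rests partly on it. In culture 2 both arrays, the control as well as the IVM array, lay below the other 8 arrays of the experiment for 14 of the 14 probesets. Over all probesets this was so for 14.1%. The difference between the mean of culture 2 and the mean of the other 4 cultures ran from -1.43 for *oma-1*, or 2.69-fold lower, to -3.59 for *egg-1*, or 12.1-fold lower, on the log2 scale. The median over the 14 probesets was -2.58, against -0.04 over all probesets, and each of the 14 was at least 1 log2 unit lower in culture 2, as were 6.21% of all probesets. The control array of this culture was never exposed to the drug.

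**Figure D1:**
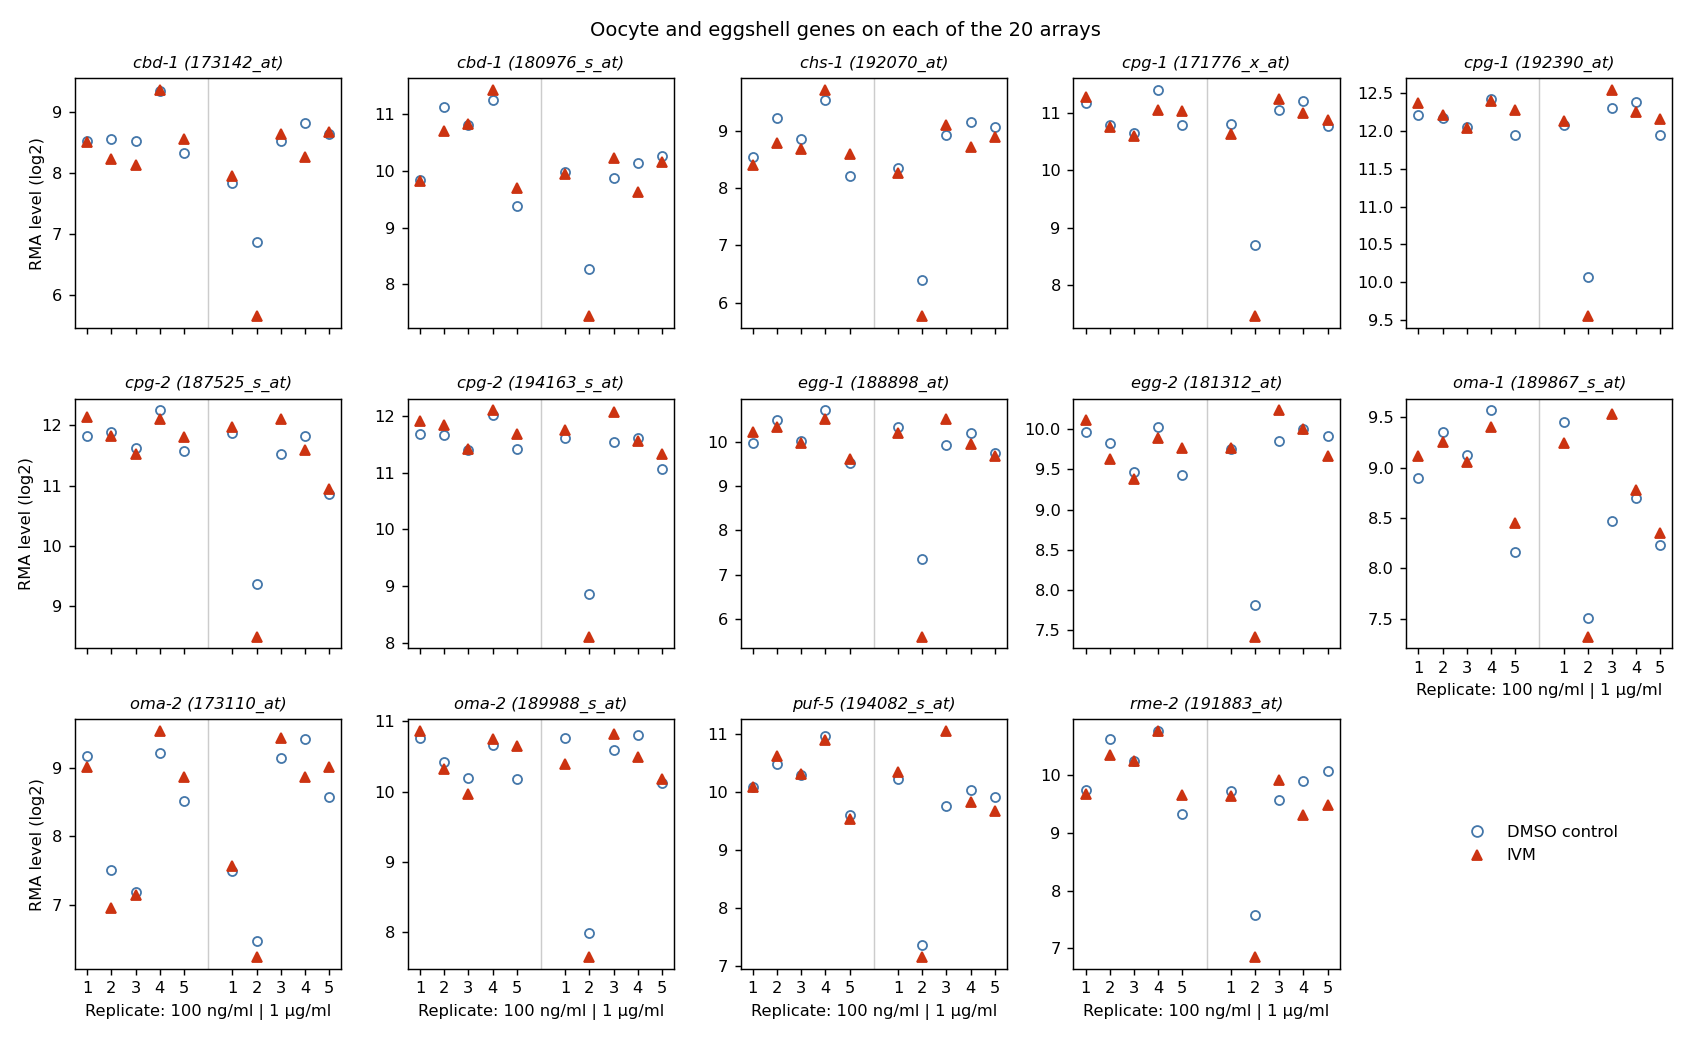
Log2 level of each of the 14 probesets on each of the 20 arrays, with one panel per probeset and its own vertical scale. Open circles are DMSO controls and triangles are IVM arrays, with replicates 1 to 5 of the 100 ng/ml experiment on the left of each panel and replicates 1 to 5 of the 1 µg/ml experiment on the right. In replicate 2 of the 1 µg/ml experiment both symbols lie below all other symbols of that experiment in all 14 panels.

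The genes that build the eggshell showed this plainly. *cpg-1* and *cpg-2* encode chitin-binding chondroitin proteoglycans of the inner eggshell. For *cpg-2* (194163_s_at) the control arrays of replicates 1 to 5 read 11.61, 8.87, 11.54, 11.60 and 11.06, and the 1 µg/ml IVM arrays 11.75, 8.11, 12.07, 11.55 and 11.32. Only replicate 2 was low, in both conditions, and the ranges of the drug and control groups overlapped. The second probeset of the gene (187525_s_at) read 11.88, 9.37, 11.53, 11.82 and 10.86 in controls and 11.98, 8.49, 12.11, 11.60 and 10.95 with IVM. *cpg-1* (192390_at) read 12.08, 10.06, 12.31, 12.39 and 11.95 in controls and 12.13, 9.54, 12.55, 12.26 and 12.16 with IVM. Its other probeset (171776_x_at) ran from 8.70 to 11.22 in controls and from 7.46 to 11.24 with IVM, again with replicate 2 lowest in both.

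*chs-1* encodes the chitin synthase that makes the chitin of the eggshell, and *cbd-1* a chitin-binding protein of the vitelline layer beneath which the shell is built. *chs-1* read 8.36, 6.39, 8.93, 9.15 and 9.07 in controls and 8.26, 5.76, 9.10, 8.73 and 8.90 with 1 µg/ml IVM. *cbd-1* (180976_s_at) read 9.98, 8.27, 9.87, 10.14 and 10.26 in controls and 9.94, 7.43, 10.22, 9.63 and 10.16 with IVM. Its other probeset (173142_at) ran from 6.86 to 8.81 in controls and from 5.65 to 8.67 with IVM. The drug and control arrays of *chs-1* and of both *cbd-1* probesets overlapped, and outside replicate 2 the controls of *chs-1* had an SD of 0.36 (n = 4).

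*egg-1* and *egg-2* encode related membrane proteins of the oocyte surface that are needed for sperm entry, and *rme-2* the oocyte receptor that takes up yolk. *egg-1* read 10.33, 7.35, 9.92, 10.19 and 9.75 in controls and 10.20, 5.60, 10.52, 9.94 and 9.67 with 1 µg/ml IVM, the widest range of the 14 probesets. Without replicate 2 the *egg-1* group means were 10.05 ± 0.26 and 10.08 ± 0.36 (SD, n = 4). *egg-2* ran from 7.81 to 10.00 in controls and from 7.42 to 10.23 with IVM. *rme-2* read 9.73, 7.58, 9.57, 9.89 and 10.07 in controls and 9.63, 6.84, 9.92, 9.31 and 9.49 with IVM. *rme-2* was lower with IVM in replicates 1, 2, 4 and 5 and higher in replicate 3.

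The regulators of maternal mRNA showed the same low culture. *oma-1* and *oma-2* encode CCCH zinc finger RNA-binding proteins that act redundantly in oocyte maturation, and *puf-5* a Pumilio-family repressor of translation in growing oocytes. *puf-5* read 10.23, 7.35, 9.75, 10.03 and 9.91 in controls and 10.35, 7.14, 11.05, 9.82 and 9.67 with 1 µg/ml IVM. *oma-1* read 9.45, 7.51, 8.47, 8.70 and 8.23 in controls and 9.24, 7.32, 9.53, 8.77 and 8.36 with IVM. Replicate 2 was lowest for both genes, and in replicate 3 the IVM array exceeded its control by 1.3 for *puf-5* and 1.06 for *oma-1*. *oma-2* (189988_s_at) read 10.76, 7.99, 10.59, 10.81 and 10.12 in controls and 10.40, 7.64, 10.81, 10.50 and 10.18 with IVM. Probesets ending in _s_at or _x_at may match more than 1 transcript, so the separate signals of close relatives such as *oma-1* and *oma-2* are uncertain.

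At 1 µg/ml none of the 14 probesets passed an adjusted p of 0.05 in limma's test on the 5 pairs, and 3.48% of all probesets did. None passed an unadjusted p of 0.05 either, as 15.6% of all probesets did, and Rank Products called 0 of the 14, against 162 higher and 116 lower over all probesets (1.35%). The log2 fold changes, IVM minus control, ran from -0.33 for *rme-2* to 0.17 for *oma-1*, with 10 below and 4 above 0 and a median of -0.11 against -0.01 over all probesets. For *rme-2* the change was -0.33 (SE 0.15, 95% confidence interval -0.68 to 0.02, limma adjusted p = 0.349), the smallest p of the members. *egg-1* had -0.32 (SE 0.27, interval -0.95 to 0.30), *cbd-1* (173142_at) -0.30 (SE 0.19) and *chs-1* -0.23 (SE 0.12), whereas *puf-5* had 0.15 (SE 0.21). The 95% interval reached 0.25 to either side of the change for the most precisely measured probeset, *oma-2* (189988_s_at), and 0.62 for the least, *egg-1*. The drug and control arrays overlapped for all 14, against 1.60% of all probesets whose groups did not overlap.

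The small average at 1 µg/ml held pairs that moved in opposite directions. In replicate 2 all 14 probesets were lower with IVM, with a median difference of -0.68 and a range of -1.75 for *egg-1* to -0.19 for *oma-1*. In replicate 3 all 14 were higher, with a median of 0.35 and a range of 0.13 for *cbd-1* (173142_at) to 1.3 for *puf-5*. Replicate 4 had 13 lower and 1 higher (median -0.24), replicate 1 had 7 of each (median -0.01) and replicate 5 had 8 higher and 6 lower (median 0.05). The median over all probesets lay between -0.03 and 0.02 in each of these pairs. No member had the same sign in all 5 pairs, as 15.2% of all probesets had, and 4 members were lower in 4 of 5 pairs, namely *cbd-1* (180976_s_at), *chs-1*, *egg-1* and *rme-2*.

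**Figure D2:**
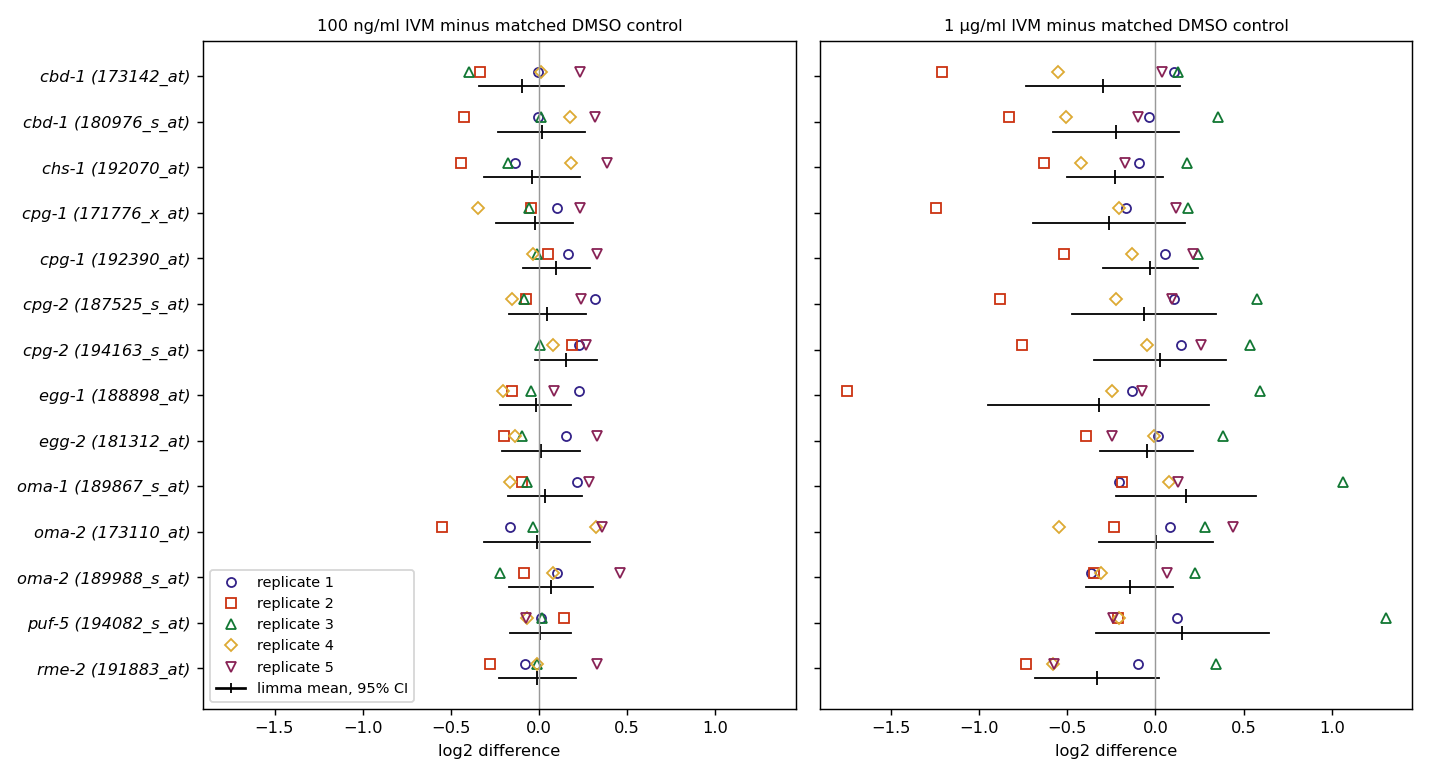
Log2 difference between the IVM array and its matched DMSO control for each of the 14 probesets, with 100 ng/ml on the left and 1 µg/ml on the right. Symbols are the 5 replicates, and the black line below them is the limma mean with its 95% confidence interval. At 1 µg/ml replicate 2 lies below 0 and replicate 3 above 0 in every row, and all black lines cross 0.

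Because replicates 2 and 3 pulled in opposite directions, the 1 µg/ml result was recomputed without each. Without replicate 2 the members had a median change of 0.03, with 8 above and 6 below 0 and a lowest limma adjusted p of 0.445, while 2.85% of all probesets were called. Without replicate 3 all 14 changes were below 0, with a median of -0.23, and 4 had an unadjusted p under 0.05 (16.2% of all probesets), but the lowest adjusted p was 0.065, while 3.44% of all probesets were called. The direction of the members at 1 µg/ml therefore rested on single cultures.

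At 100 ng/ml the 10 genes lay close to their controls. *egg-1* read 9.98, 10.49, 10.02, 10.71 and 9.53 in the controls and 10.21, 10.33, 9.97, 10.50 and 9.62 with IVM. *rme-2* read 9.74, 10.62, 10.25, 10.77 and 9.33 in the controls and 9.67, 10.34, 10.24, 10.76 and 9.66 with IVM. The pair differences of *egg-1* lay between -0.21 and 0.23 and those of *rme-2* between -0.28 and 0.33, and the groups overlapped for both. *chs-1* ran from 8.21 to 9.54 in controls and from 8.40 to 9.72 with IVM, and *cpg-1* (192390_at) from 11.95 to 12.43 and from 12.04 to 12.40. *puf-5* read 10.08, 10.48, 10.29, 10.97 and 9.61 in the controls and 10.09, 10.62, 10.31, 10.90 and 9.53 with IVM, so that no pair differed by more than 0.14.

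None of the 14 probesets was called at 100 ng/ml in limma, with 0% of all probesets called, and none of the 14 had an unadjusted p under 0.05, as 4.35% of all probesets had. Rank Products called 0 of the 14, against 32 higher and 4 lower over all probesets (0.175%). The member changes ran from -0.10 for *cbd-1* (173142_at) to 0.15 for *cpg-2* (194163_s_at), with 8 above and 6 below 0 and a median of 0.01, which is also the median over all probesets. *cpg-2* (194163_s_at) was the 1 member with the same sign in all 5 pairs, at 0.23, 0.19, 0.01, 0.08 and 0.27, as 5.04% of all probesets were, and its mean change was 0.15 (SE 0.08, limma adjusted p = 0.936). The other *cpg-2* probeset was higher in 2 of 5 pairs. The 95% intervals reached between 0.17 and 0.30 to either side of the change over the 14 probesets.

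By culture, replicate 5 of the 100 ng/ml experiment had 13 of 14 probesets higher with IVM (median 0.30), while replicates 2 and 3 each had 11 of 14 lower (medians -0.13 and -0.05). Replicate 1 had 9 higher and 5 lower, and replicate 4 had 6 higher and 8 lower. Over all probesets the pair medians at this dose lay between -0.02 (replicate 3) and 0.03 (replicate 1). Leaving out replicate 4 raised the share of all probesets called at this dose to 1.52%, but none of the members was among them, and their median change was then 0.04. Leaving out replicate 5 took the median to -0.05.

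The change at 1 µg/ml was next set against that at 100 ng/ml. The difference ran from -0.32 for *rme-2* to 0.15 for *puf-5* with a median of -0.16, and 11 of 14 were below 0. None of the members passed (limma adjusted p of 0.798 to 0.994), none had an unadjusted p under 0.05 (6.79% of all probesets), and 0.00486% of all probesets were called. Without culture 2 of the 1 µg/ml experiment 9 of the 14 differences were above 0 and the median was 0.03. For *rme-2* the difference was -0.32 (SE 0.19, 95% interval -0.74 to 0.10), and for *egg-1* -0.30 (SE 0.32, interval -1.0 to 0.39).

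Between the groups, the mean level of each of the 14 probesets was lower in both groups of the 1 µg/ml experiment than in both groups of the 100 ng/ml experiment. The 1 µg/ml means include culture 2, and the share of all probesets with this order was not computed. The lowest mean was that of the 1 µg/ml IVM arrays for 10 probesets and that of their controls for 4, and the highest was that of the 100 ng/ml IVM arrays for 8 and of their controls for 6. Control arrays of the 1 µg/ml experiment minus those of the 100 ng/ml experiment gave -0.83 for *puf-5* (SE 0.51), -0.77 for *rme-2* (SE 0.47) and -0.10 for *oma-2* (173110_at, SE 0.61), with a median of -0.54 against 0.02 over all probesets. No member passed (limma adjusted p of 0.520 to 0.961), none had an unadjusted p under 0.05 (10.9% of all probesets), and 0% of all probesets were called. The control groups overlapped for all 14 members, against 1.05% of all probesets whose control groups did not overlap. Without the control array of culture 2 the median was -0.14 and 4 of the 14 were above 0. The DMSO share and the experiment changed together and cannot be told apart. Neighbouring groups in this order that were drug and matched control, or both controls, did not pass the test, and a drug group was not tested against a group of the other experiment.

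With all 5 cultures kept, the SD of the culture means of most members was larger than that of their drug-minus-control differences. A culture mean averages the drug and control arrays and a pair difference subtracts them. The SDs of the means and of the differences are therefore not on one scale, and the share over all probesets is given beside each count. At 1 µg/ml the SD of the 5 culture means had a median of 1.24 over the members and ran from 0.74 for *oma-1* to 1.62 for *egg-1*, which put them at percentiles 93.2 to 99.4 of all probesets, whose median SD was 0.22. The SD of the pair differences had a median of 0.47, and the culture SD was the larger for all 14, as it was for 52.7% of all probesets. Without culture 2 the median culture SD was 0.26, at a median percentile of 68.7, and the median SD of the pair differences was 0.33. The culture SD was then the larger for 7 of 14, against 46.2% of all probesets. *rme-2*, at 1.12 with all cultures, had 0.08 without culture 2, since the other 4 culture means were 9.68, 9.75, 9.60 and 9.78.

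At 100 ng/ml the culture SD had a median of 0.41, against 0.21 over all probesets, at a median percentile of 79.5. It was above the SD of the pair differences, with a median of 0.22, for 13 of 14, against 50.8% of all probesets. *puf-5* had culture means of 10.08, 10.55, 10.30, 10.93 and 9.57, with an SD of 0.51, against 0.09 for its pair differences. Culture 4 was the highest for 12 of the 14 probesets (13% of all probesets). Culture 3 was the lowest for 8 (20.7%) and culture 5 for the remaining 6 (15.8%). The genes lowest in culture 5 were *cbd-1* (180976_s_at), *chs-1*, *egg-1*, *oma-1*, *puf-5* and *rme-2*. Both probesets of *cpg-1*, *cpg-2* and *oma-2* were lowest in culture 3, with *egg-2* and *cbd-1* (173142_at).

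**Figure D3:**
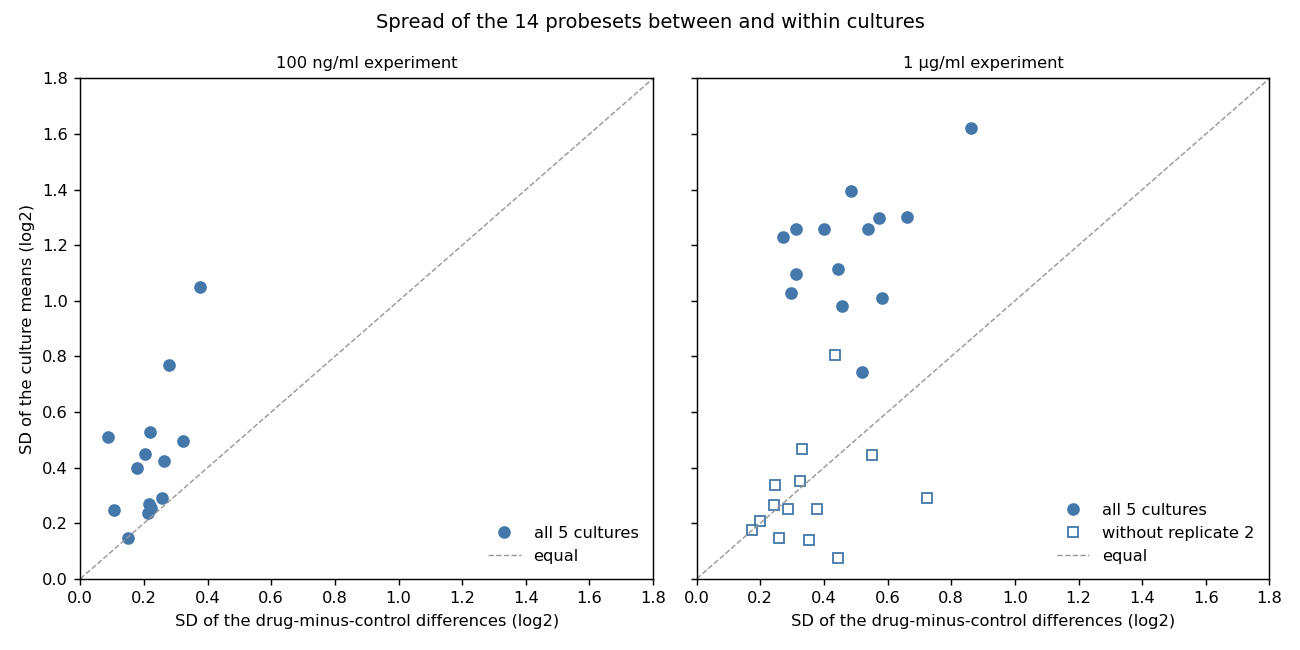
SD of the 5 culture means (vertical) against SD of the 5 drug-minus-control differences (horizontal), both on the log2 scale, with one point for each of the 14 probesets and the 100 ng/ml experiment on the left. Filled circles use all 5 cultures, open squares leave out replicate 2 of the 1 µg/ml experiment, and the dashed line marks equal SDs. All 14 filled circles lie above the line at 1 µg/ml and 13 of 14 at 100 ng/ml. An SD of means and an SD of differences are not on one scale.

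The *oma-2* probeset 173110_at departed from the other members. In the 100 ng/ml experiment it read 9.18, 7.50, 7.18, 9.22 and 8.51 in controls and 9.01, 6.95, 7.15, 9.54 and 8.87 with IVM, low in replicates 2 and 3 of both conditions. The other *oma-2* probeset (189988_s_at) read 10.76, 10.41, 10.19, 10.67 and 10.19 in controls and 10.87, 10.33, 9.97, 10.75 and 10.65 with IVM, a much narrower range over the same arrays. At 1 µg/ml 173110_at was also low in replicate 1, at 7.49 and 7.56, where 189988_s_at was not. Its SD of culture means at 100 ng/ml was 1.05, against 0.29 for 189988_s_at.

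After the mean of each group was taken off, the correlation of a member probeset with the mean of the other 9 genes over the 20 arrays had a median Pearson r of 0.942, with 0.617 for *oma-2* (173110_at) as the lowest and 0.985 for *egg-1* as the highest. These 20 points share 10 cultures and the same arrays. Without culture 2 the median r was 0.650 over 18 arrays, with 0.945 for *egg-1*, 0.902 for *puf-5*, 0.810 for *oma-1* and 0.803 for *rme-2*, but 0.378 for *cpg-1* (171776_x_at) and 0.10 for *oma-2* (173110_at). Among 19167 probesets of 1 gene outside the set, those with the profile most like the member mean over 20 arrays were *puf-11* (r = 0.988), T05F1.2 (0.984), *trcs-1* (0.978), *mig-32* (0.971), *vit-6* (0.971), *vit-2* (0.969), *inx-14* (0.965), *puf-3* (0.963), *wdr-5.3* (0.962) and W05F2.6 (0.961). Without culture 2 only T05F1.2 of these remained among the first 10, which *kel-20* (0.965), *mex-3* (0.946) and *icp-1* (0.941) led.

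Other genes of the same pathway fell in culture 2 to differing degrees. Of 11 further eggshell genes measured, 10 were lowest in culture 2, as were 29% of all probesets, with a median difference from the other 4 cultures of -2.13. The vitelline layer gene *perm-2* was at -4.92, the caveolin gene *cav-1* at -4.07, *cpg-3* at -3.87 and *gna-2*, an enzyme of the chitin precursor, at -3.10, while *perm-5* was at -0.39. Of 17 further genes of oocyte RNA binding and maturation 16 were lowest, with a median of -1.53, from -3.63 for *pos-1* to 0.40 for *moe-3*. General germline genes were less far down, with 12 of 13 lowest and a median of -0.79.

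Genes outside the oocyte also marked this culture. The yolk protein genes *vit-1*, *vit-2*, *vit-4*, *vit-5* and *vit-6*, which the intestine expresses in adult hermaphrodites, lay at -5.15, -5.54, -6.30, -6.0 and -4.78, and all 5 were lowest in culture 2. A list of 7 genes of the L4 and adult cuticle also held moulting genes. For the adult collagen gene *col-19* culture 2 was the lowest, at -5.0. For the other 6 it was the highest, with 2.38 for *noah-1*, 2.12 for *bli-2*, 2.04 for *bli-1*, 1.90 for *mlt-11*, 0.93 for *mlt-10* and 0.52 for *nas-37*. The share of all probesets highest in culture 2 was not computed. The median was 0.00 for 12 sperm genes (4 lowest and 1 highest in culture 2), 0.02 for 7 genes of the somatic gonad (2 lowest and 1 highest) and -0.27 for 10 zygotic genes of the embryo (5 lowest). The 4 lowest sperm genes were *ssp-19* at -1.60, *spe-11* at -1.22, *ssp-10* at -1.06 and *spe-12* at -0.46, and the highest was *fer-1* at 0.31. The 2 lowest somatic gonad genes were the innexin genes *inx-8* at -2.37 and *inx-9* at -0.89. The medians of these 2 arrays, 5.68 each, and their signals for the 3′ against the 5′ end of control transcripts lay within the range of the other arrays. What part these markers have in the low member levels was not tested.

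**Figure D4:**
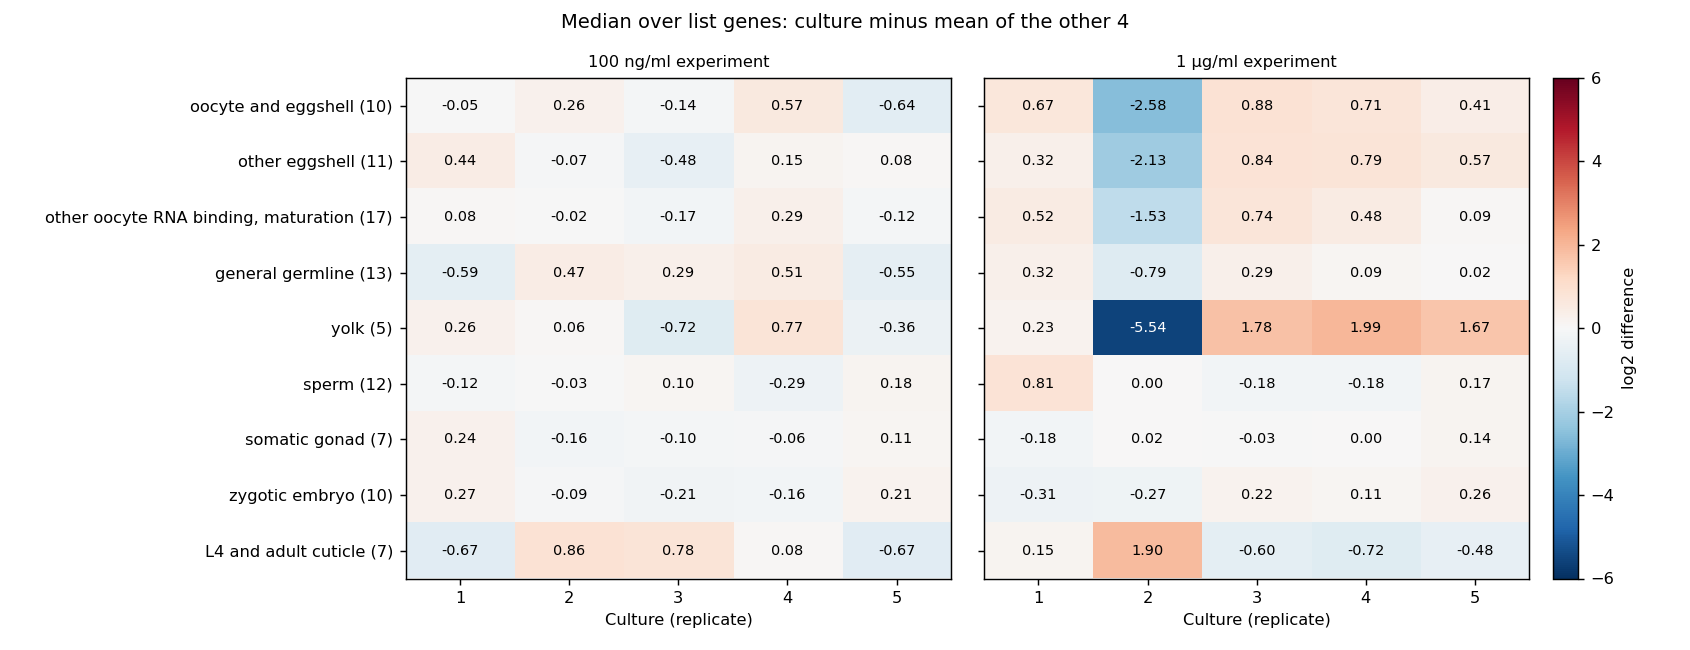
Median over the genes of each list of the difference between a culture and the mean of the other 4 cultures of its experiment, on the log2 scale, with the number of genes measured in brackets. Columns are cultures 1 to 5 of the 100 ng/ml experiment (left) and of the 1 µg/ml experiment (right), and the other cultures at 1 µg/ml are raised by the presence of culture 2 among their comparators. Culture 2 at 1 µg/ml stands at -2.58 for the 10 oocyte and eggshell genes, -5.54 for yolk and 1.90 for the L4 and adult cuticle. The cuticle list also holds moulting genes, and its adult collagen gene *col-19* went the other way, at -5.0 in culture 2 at 1 µg/ml.

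The same lists were then compared between IVM and control. In limma no gene of any of the 8 lists was called at either dose. Over all probesets 2.11% were called higher and 1.37% lower at 1 µg/ml, and 0% at 100 ng/ml. Rank Products calls were not examined here for these lists. The study used Rank Products, and at its looser false discovery rate it named *vit-1*, *vit-3* and *vit-4* as down-regulated at 1 µg/ml. Of these *vit-3* is not among the yolk genes measured here. Of the 82 genes 9 (11%) had an unadjusted p under 0.05 in limma at 1 µg/ml, where 15.6% of all probesets had, and 6 (7.32%) at 100 ng/ml, where 4.35% had. At 1 µg/ml the other eggshell genes had a median change of 0.04 (11 genes) and the other oocyte RNA-binding and maturation genes of 0.00 (17 genes). *gna-2* was lower in 5 of 5 pairs at -0.22 (SE 0.08, limma adjusted p = 0.204), and *cav-1* was higher in 4 of 5 at 0.39 (SE 0.16). *dgtr-1* had -0.26 (SE 0.14) and *perm-4* 0.12 (SE 0.08, higher in 5 of 5 pairs), and for the RNA-binding and cell cycle genes *cdk-1* had -0.27 (SE 0.12) and *pie-1* -0.14 (SE 0.08, lower in 5 of 5). At 100 ng/ml *pie-1* was instead higher in 5 of 5 pairs at 0.23 (SE 0.10), as was *egg-3* at 0.14 (SE 0.08), each with a limma adjusted p of 0.936. Besides *pie-1*, the genes with an unadjusted limma p under 0.05 at this dose were *syp-2* (0.27) and *gsp-4* (0.24), which were higher. *glh-1* (-0.22), *fkh-6* (-0.29) and *spe-12* (-0.20) were lower.

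The yolk genes, which supply what *rme-2* takes up, had a median change of -0.28 at 1 µg/ml. *vit-1* was at -0.65 (SE 0.18, limma adjusted p = 0.101), *vit-4* at -0.37 (SE 0.15) and *vit-5* at -0.28 (SE 0.11), each lower in 5 of 5 pairs. For each of them the largest fall was in replicate 1, at -1.44, -1.13 and -0.70. The probesets of *vit-4* and *vit-5* end in _x_at and may match more than 1 transcript. *vit-2* and *vit-6* were at -0.08 (SE 0.16) and -0.09 (SE 0.17) and were each higher in 3 of 5 pairs. Among the general germline genes the P granule helicase genes *glh-1* and *glh-4* were lower in 5 of 5 pairs, at -0.47 (SE 0.13, adjusted p = 0.104) and -0.35 (SE 0.10), with a median of -0.03 over 13 genes. The 7 cuticle and moulting genes had a median of -0.42, and in the pair of replicate 2 *noah-1* differed by -2.0 and *mlt-11* by -1.72. In that culture the drug array was lower than its control for these 7 genes as well as for the 14 oocyte and eggshell probesets. The sperm, somatic gonad and embryo lists had medians of -0.05, 0.04 and 0.01. Only *spe-38* of these lists had an unadjusted limma p under 0.05, at -0.28 (SE 0.11, limma adjusted p = 0.241), lower in 5 of 5 pairs.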

How the data were processed

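Total RNA from whole DA1316 worms was hybridised to 20 Affymetrix arrays. The deposited values are on the log2 scale. The authors computed them with RMA, which corrects background, quantile normalizes and summarises probes. Sample labels name limma and RMA without versions. No detection calls or background values were used, and levels of different probesets were not compared. Groups were taken from sample titles. Free-text descriptions name 1.5% DMSO on all arrays and ABZ on 7, against the other labels, and were not used.

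Of 20575 probesets 12 spike-ins were left out. limma 3.58.1 (R 4.3.3) was fitted to each dose with the replicate number as a block, to the difference between doses over 20 arrays with 10 blocks, and to the control arrays without a block. Benjamini-Hochberg adjustment covered all 20563 probesets at a threshold of 0.05, and SEs are moderated. The pairing follows the methods, in which each suspension was split. Same-numbered arrays correlated at r of 0.499 to 0.884 (1 µg/ml) and 0.553 to 0.883 (100 ng/ml) after group means were removed. Replicate 3 at 1 µg/ml (0.499 against 0.673) and replicate 5 at 100 ng/ml (0.729 against 0.815), in which 14 and 13 of the member probesets were higher with IVM, lay closer to an array of another number. Precision is limited by the 5 pairs per dose and the spread between them. Gene symbols came from the platform annotation and matched RefSeq (WBcel235) for all 10 genes. In other lists a gene is its single-gene probeset with the highest mean.

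All member probesets are named, with up to 4 genes of each other list with the smallest p per dose and the 10 most alike profiles. The members and lists were chosen with earlier results of these data known, and the emphasis on culture 2, the list genes named for their level there and *vit-2* at 1 µg/ml followed their values. Alternatives were a fit with no replicate block, 1 fit over the 20 arrays, repeated quantile normalization, median centring, dropping the dimmer probesets (mean below the median), a trended robust eBayes, a threshold of 0.10, each replicate left out, gene means for lists, and unpaired Rank Products (100 permutations, 5% false positives, written in numpy 2.4.6). Fits were tested on simulated data. Tables and plots used pandas 2.3.3 and matplotlib 3.10.9 under Python 3.11.15.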

Additional observations from a re-analysis of the deposited data

Results flagged for a closer look

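Each probeset was examined in each group of 5 arrays for a highest or lowest array that stood far from the rest, by Dixon's ratio of its gap to the whole range at the 95% level. Of 56 groups 21 were picked out, where chance alone gives about 1 in 20, and 20 of the 21 were the low arrays of replicate 2 in the 1 µg/ml experiment.

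Among the 1 µg/ml controls the log2 level of replicate 2 stood apart for *cbd-1* (180976_s_at) at 8.27, *chs-1* (192070_at) at 6.39, *cpg-1* (171776_x_at) at 8.70, *cpg-1* (192390_at) at 10.06, *cpg-2* (194163_s_at) at 8.87, *egg-1* (188898_at) at 7.35, *egg-2* (181312_at) at 7.81, *oma-2* (189988_s_at) at 7.99, *puf-5* (194082_s_at) at 7.35 and *rme-2* (191883_at) at 7.58. Among the 1 µg/ml IVM arrays it stood apart for *cbd-1* (173142_at) at 5.65, *cbd-1* (180976_s_at) at 7.43, *chs-1* (192070_at) at 5.76, *cpg-1* (171776_x_at) at 7.46, *cpg-1* (192390_at) at 9.54, *cpg-2* (194163_s_at) at 8.11, *egg-1* (188898_at) at 5.60, *egg-2* (181312_at) at 7.42, *oma-2* (189988_s_at) at 7.64 and *rme-2* (191883_at) at 6.84. The ratio ran from 0.711 to 0.884 in controls and from 0.748 to 0.861 with IVM. These arrays are 1 culture, so the 20 values are not independent of one another.

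In the 100 ng/ml experiment the control array of replicate 4 stood high for *cbd-1* (173142_at), at 9.34 against 8.55 for the next highest control array.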

How the results depend on the processing

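The number of member probesets called was 0 of 14 in each comparison under each alternative that was run, and so was the number of other pathway genes called with gene means. Without the replicate block that takes up the pairing, 0 of 14 were called at either dose. The SE of the 1 µg/ml changes widened to between 0.45 and 0.95. The medians of -0.11 and 0.01 could not move, since with complete pairs the block does not alter the mean change. Over replicates left out in turn, the median member change ran from -0.23 to 0.03 at 1 µg/ml, from -0.05 to 0.07 at 100 ng/ml, from -0.28 to 0.03 for the difference between doses and from -0.71 to -0.14 between controls. The median SD of culture means ran from 0.26 (without culture 2) to 1.39 at 1 µg/ml and from 0.29 to 0.47 at 100 ng/ml. No called value changed sign, since none was called. Counting each probeset under each alternative, signs of uncalled values changed in 13 of 168 cases at 1 µg/ml and 19 of 168 at 100 ng/ml. Between doses they changed in 14 of 210 and between controls in 7 of 210. Alternatives that alter only the threshold, the blocks, the probesets kept or the variance estimate leave each change as it was. No sign could change under these. Quantile normalization took the median at 100 ng/ml to -0.004 and at 1 µg/ml to -0.07, and the culture SD at 1 µg/ml to 1.21. Signal over background was not used here, so low levels such as those of culture 2 may lie near a floor that was not measured. Leaving out cultures from the spread and the likeness was chosen after seeing the data.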
